A study of Caenorhabditis elegans with 2 samples.

Results

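The genes of a chromatin complex, 2 in all, were examined for binding of ZAG-1 in Caenorhabditis elegans larvae, zfp-1 (WBGene00006975) and dot-1.1 (WBGene00021474), out of 19973 protein-coding genes. On ce11, which is the WBcel235 assembly, zfp-1 spans 14771 bp of the plus strand of III, from 8791535 to 8806305, and dot-1.1 spans 18540 bp of the minus strand of I, from 2382953 to 2401492. Their entries were those with a summit in the gene body or within 5000 bp of an annotated start of a protein-coding transcript. That gave 17 of 30000 entries in the pooled list and 4 of 478 in the optimal list, with 25 and 24 of 30000 entries in the lists of replicates 1 and 2. The pair was chosen by ranks of signal already known from these lists, so counts and ranks are given as a description and no test was made of them.

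The data come from chromatin immunoprecipitation and sequencing of whole L1 larvae of both sexes, in 2 biological replicates that form 1 group. Both replicates were strain OP83, which carries the unc-119(ed3) mutation on III and wgIs83, the array with the eGFP-zag-1 fusion. No untreated or control samples were analysed here. The lists come from all cells of the animal together, so they do not show which cells hold an entry. By its deposited name the pooled list holds peaks and background, and its −log10 q ran from 0.04 to 2.58. The replicate lists, of 30000 entries each, reached down to 0.08 in replicate 1 and 0.07 in replicate 2. An entry outside the optimal list is therefore not by itself a binding site. Read numbers per library were not given, so depth is unknown.

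ZAG-1 is a zinc finger homeodomain protein of the ZEB class, known for its part in neuron differentiation. ZFP-1 is the worm counterpart of mammalian AF10, a protein with PHD fingers near its amino end. DOT-1.1 is a worm counterpart of DOT1L, the enzyme that methylates a lysine in the core of histone H3. In worms as in mammals these 2 proteins form a complex, which in worms is found at the promoters of active genes and is known to restrain RNA polymerase II there.

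The sequences at the 4 optimal summits in zfp-1 are shown because these regions carry the binding described here. Each line gives 201 bases of WBcel235, from RefSeq, centred on the summit of a pooled entry and read on the plus strand, which is the strand of zfp-1. They lie at chrIII:8795781-8795981, chrIII:8797292-8797492, chrIII:8800078-8800278 and chrIII:8802051-8802251. Capitals mark GAGAGA or its reverse complement TCTCTC.
zfp-1 entry of pooled rank 112: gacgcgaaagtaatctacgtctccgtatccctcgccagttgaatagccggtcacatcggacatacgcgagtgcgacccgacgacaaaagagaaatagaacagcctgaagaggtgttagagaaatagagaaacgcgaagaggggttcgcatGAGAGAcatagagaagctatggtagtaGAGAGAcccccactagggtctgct
zfp-1 entry of pooled rank 132: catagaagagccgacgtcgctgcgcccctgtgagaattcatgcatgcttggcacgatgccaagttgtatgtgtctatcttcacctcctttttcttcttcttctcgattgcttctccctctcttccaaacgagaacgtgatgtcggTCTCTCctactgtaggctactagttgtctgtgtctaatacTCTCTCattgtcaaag
zfp-1 entry of pooled rank 133: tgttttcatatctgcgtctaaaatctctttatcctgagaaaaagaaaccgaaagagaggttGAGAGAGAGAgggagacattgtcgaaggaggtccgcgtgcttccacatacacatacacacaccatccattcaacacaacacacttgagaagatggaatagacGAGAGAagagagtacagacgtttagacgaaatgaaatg
zfp-1 entry of pooled rank 10: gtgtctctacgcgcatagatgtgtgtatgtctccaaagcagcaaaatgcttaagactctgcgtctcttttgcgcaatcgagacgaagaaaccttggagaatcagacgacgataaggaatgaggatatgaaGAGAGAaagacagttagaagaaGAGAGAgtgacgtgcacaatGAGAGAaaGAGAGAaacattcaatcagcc

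ZAG-1 entries of high signal lay inside zfp-1, and all 4 were in introns. The optimal list, which the authors named as thresholded on the irreproducible discovery rate, held 4 entries at zfp-1 and 0 at dot-1.1. By the same rule, 5.52% of all protein-coding genes (1103 of 19973) had 1 or more optimal entries, so a gene without one, as dot-1.1, was the common case. Only 0.015% (3 of 19973) had 4 or more, and those were zfp-1, F54F2.6, which lies within an intron of zfp-1 and counts the same 4 entries, and pqn-41. Since zfp-1 was chosen with its rank known, these shares describe the gene and are no support for it.

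In the pooled list, whose signal value is the authors' own for each entry, the highest entry of zfp-1 was at chrIII:8801979-8802322 with a signal of 91.7, which ranked 10 of 30000. In replicate 1 the signal there was 32.8 (rank 21 of 30000), and in replicate 2 it was 59.6 (rank 11). Both replicates thus placed this entry near the head of their own lists, with summits 40 bp upstream and 38 bp downstream of the pooled summit. Values from different lists are on scales that were not given, so signals are printed as deposited and only their ranks are compared between lists.

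The entry ranked 10 lay in an intron of 3179 bp, from 8799646 to 8802824, which is the first intron of transcript F54F2.2c.1. Its summit was 668 bp upstream of the start of F54F2.2c.2, at 8802819, and 10616 bp downstream of the first annotated start of the gene. The transcripts F54F2.2c.1 and F54F2.2c.2 encode a protein of 635 residues, and the F54F2.2a transcripts one of 867 residues that has more sequence at its amino end. A summit upstream of a start is a position only, and these lists hold no measure of transcripts.

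A further optimal entry lay in the same intron, at chrIII:8800006-8800349, with a pooled signal of 47.2 (rank 133). Its summit was 645 bp downstream of the start of F54F2.2c.1, and 523 bp from the start of F54F2.6, a small protein-coding gene on the other strand within that intron. Replicate 2 placed it at rank 67, with a signal of 37.3, and replicate 1 at rank 1368, with a signal of 9.49. The entry was therefore among the 478 highest of replicate 2 and outside those of replicate 1.

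The other optimal pair lay in the intron ahead of the exon that opens at 8798398, which is 4254 bp long in transcript F54F2.2a.2 and 3573 bp in F54F2.2a.7. The entry at chrIII:8795709-8796052 had a pooled signal of 50.2 (rank 112), and its summit was 1472 bp downstream of the start of F54F2.2a.7. It ranked 58 in replicate 1 (signal 25) and 178 in replicate 2 (signal 28.5), so it was among the 478 highest in both. The entry at chrIII:8797220-8797563 had a pooled signal of 47.2 (rank 132), with its summit 1006 bp upstream of the start of F54F2.2a.1.

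The entry ranked 132 was the one on which the replicates differed most. Replicate 1 had it at rank 16, its highest entry at zfp-1, with a signal of 33.6. Replicate 2 had it at rank 3521, with a signal of 11.8 and a −log10 q of 0.77, in a list where that value reached 2.34. In replicate 1 the −log10 q was 2.39, the highest value of that list. The entry overlapped F54F2.13, a gene annotated as ncRNA on the other strand, and its summit lay 52 bp upstream of the start of that gene. The pooled summit was the same base as that of replicate 1 and 41 bp from that of replicate 2.

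**Figure D1:**
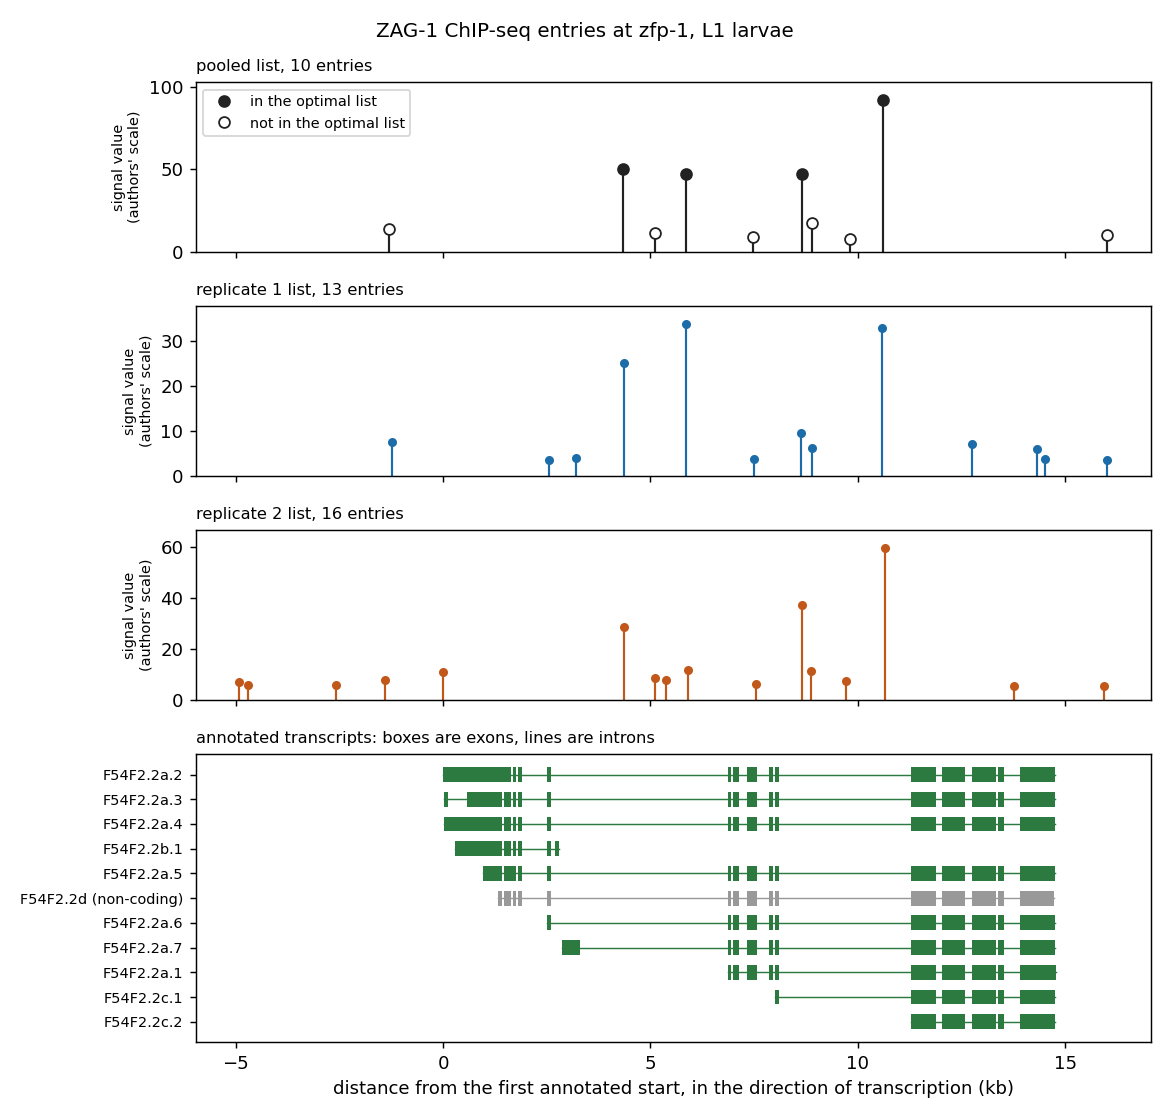
Signal of each entry at zfp-1 (vertical axis, the authors' scale, separate for each list) against its summit's distance from the first annotated start (kb) in the pooled list and in both replicates, above the 11 annotated transcripts. The 4 filled points are the optimal entries, at 4.3 to 10.6 kb, and each lies over an intron.

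All 9 annotated coding starts of zfp-1 lacked an optimal summit within 500 bp, and the shortest distance was the 645 bp given above. Around the first start, at 8791535, the nearest pooled summit was 1312 bp upstream, within the neighbouring gene ztf-1, with a signal of 13.6 (rank 5931). Replicate 2 had an entry with its summit 12 bp upstream of that start (rank 4852, signal 10.7), which overlapped no pooled entry, and replicate 1 had none there. That summit also lay inside ztf-1 and 23 bp upstream of the start of the protein-coding gene F54F2.14, so it cannot be assigned to zfp-1 alone. The binding listed at high rank was thus placed within the gene, 4346 to 10616 bp from its first start.

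Below the optimal entries the ranks fell steeply. The other 6 pooled entries of zfp-1 ranked from 2278 to 27278, with signals from 17.5 down to 7.84. The entry ranked 2278 overlapped both the optimal entry of rank 133 and F54F2.6, with its summit 273 bp from the start of F54F2.6. The replicates had a summit 0 and 25 bp from it, at rank 7382 in replicate 1 and rank 4350 in replicate 2. Of the other entries, the one ranked 20423 lay in a coding exon of the long isoform and the one ranked 15959 in prx-19, past the 3′ end of zfp-1.

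The pooled list held 10 entries at zfp-1, replicate 1 held 13 and replicate 2 held 16. Of the 10 pooled entries, 8 overlapped an entry of both replicates by 1 bp or more. The share over all pooled entries was not computed. The pooled list is made from the same replicates, so this count is a description and no support for the entries. The pooled entries that replicate 1 lacked were those ranked 11002 and 27278. In each replicate 5 entries at zfp-1 overlapped no pooled entry, and the best of them ranked 4880 in replicate 1 and 4852 in replicate 2. No entry within the 478 highest of a replicate was missing from the pooled list at this gene.

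Of the 4 optimal entries, 2 were among the 478 highest of both replicates, 1 was so in replicate 1 only and 1 in replicate 2 only. Over the whole optimal list, 205 of 478 (42.9%) were among the 478 highest of both. To set the disagreement in scale, the absolute log2 ratio of the 2 replicate ranks was computed for the 467 optimal entries that overlapped an entry in both. Its median was 1.69, and the zfp-1 entries of pooled rank 10, 112, 133 and 132 had values of 0.93, 1.62, 4.35 and 7.78. A value as large as 7.78 was reached by 6 of the 467 entries (1.28%), and one as large as 4.35 by 61 (13.1%). The entries ranked 10 and 112 were thus placed about as evenly as the usual optimal entry, and those ranked 132 and 133 less evenly.

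**Figure D2:**
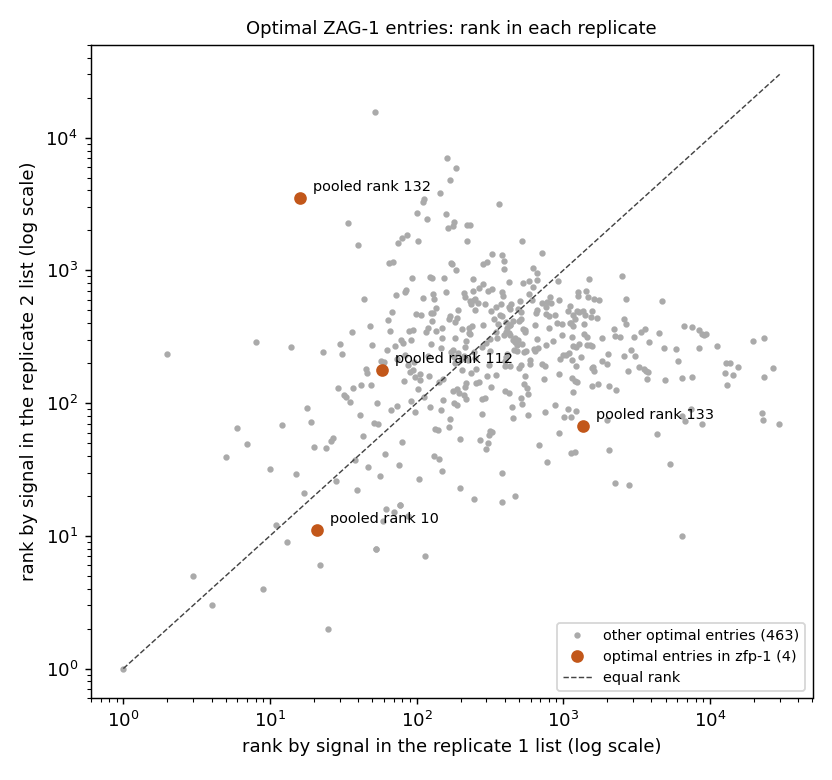
Rank by signal in replicate 1 (horizontal, log scale) against rank in replicate 2 (vertical, log scale) for the 467 optimal entries overlapped in both lists, with the 4 of zfp-1 as large points and a dashed line at equal rank. The entries of pooled rank 10 and 112 lie near the line, that of rank 132 (16 against 3521) far above it and that of rank 133 (1368 against 67) below it.

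In the pooled list the entries next above the leading one of zfp-1 were at egg-5 (rank 8, signal 95.5) and nspc-17 (rank 9, 94.4), and those next below at vps-51 (rank 11, 89.8) and W02H3.3 (rank 12, 88.7), each named by its nearest start. The summit of rank 12 was 4040 bp from that start, so the name gives a neighbour only. The limit of the optimal list was far below the zfp-1 entries. Its last 2 members had signals of 29.61 at micu-1 (rank 477) and 29.58 at T13C5.6 (rank 478), and the first 2 outside had 29.58 at Y59A8B.24 and 29.57 with mig-15 as the nearest start, so signal barely changed across that limit. The mig-15 summit was far from that start, at −7113 bp, where a negative value is upstream. The −log10 q of all 4 zfp-1 entries was 2.58, the highest value in the list, which 189 entries shared.

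The 4 summits spanned 6270 bp, with gaps of 1511, 2786 and 1973 bp. Over the genome, 2 groups of 4 or more optimal summits fitted within such a span, at zfp-1 and at pqn-41, a gene for a glutamine-rich protein, also on III. The 4 pqn-41 entries were intronic too, with pooled ranks of 32, 73, 257 and 361. Their replicate ranks were 7 and 49, 31 and 234, 111 and 3304, and 285 and 788, so replicate 1 had the better rank at each of these. Both genes were the only ones with 3 or more optimal summits in the body, out of 107 with 1 or more. pqn-41 was singled out after these values were seen.

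An intron position next to a second start of the same gene was looked for over the whole optimal list. Of the 478 optimal summits, 89 lay in an intron of a protein-coding gene, over 500 bp from its first start. These made 90 pairs of a summit and a gene, and in 15 pairs the summit was within 500 bp of another start of that gene, led by hsp-90 (rank 30), hif-1 (rank 58), cox-6B (rank 69), kel-3 (rank 79) and pde-4 (rank 163). No zfp-1 summit met that limit, and the nearest to an own start were at 645 and 668 bp.

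Of the words searched, GAGAGA alone was in all 4 optimal windows of zfp-1. How these words were picked was not recorded, and rank and composition go together in these lists. A match is therefore a description and no support for an entry. The GC content of these windows was 50.7%, 47.3%, 42.3% and 43.8% for the entries ranked 112, 132, 133 and 10, against a median of 43.3% over optimal windows and 32.3% over pooled windows outside the optimal list. Each held GAGAGA, searched on both strands with overlapping matches counted, 2, 2, 4 and 4 times, marked by the capitals above. A match was present in 49.4% of optimal windows and 12.3% of the other pooled windows of the same length. The pooled entry ranked 2278 held 8 matches, the most of the 17 entries at these genes.

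Other words were less even. CGTCTC, searched on both strands, was at the entries ranked 112 (1 match) and 10 (2 matches), and in 36.4% of optimal and 5.75% of other pooled windows. GACGCA was at those ranked 133 and 10, with 1 match each, against 27.8% of optimal and 4.29% of other pooled windows. CAGGTG and CAGGTA, the E-box forms known for ZEB-class proteins, were in none of the 4 windows, and they were in 1.88% and 1.67% of optimal windows and 3.94% and 4.27% of other pooled windows. CAGCTG, a further E-box form searched, was in none of the 4 either, but in 5.02% of optimal and 3.2% of other pooled windows. A word in a window is a description of these letters and says nothing of which factor was bound.

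dot-1.1 had entries of low rank only. Its 7 pooled entries ranked from 4644 to 23634, with signals from 14.5 down to 8.41, none in the optimal list. The highest, at chrI:2382798-2383141, lay in the last exon, outside coding sequence, with a −log10 q of 0.37. Its summit was 1119 bp from the start of the neighbouring gene sydn-1 and 6981 bp from the nearest start of dot-1.1 itself. The summits in replicates 1 and 2 were each 1 bp away, at rank 8602 (signal 5.89) and rank 23992 (signal 6), so the replicates placed nearly the same position but not at a high rank.

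Around the annotated starts of dot-1.1 the entries were of that low order too. The gene has 3 coding starts, and the first, at 2401492, belongs to the transcript for a protein of 946 residues. A pooled summit lay 178 bp upstream of it (rank 15551, signal 10), between dot-1.1 and the divergent gene zwl-1, and replicate 1 had an overlapping entry at rank 9209 where replicate 2 had none. A further entry lay 869 bp upstream, inside zwl-1 and 129 bp from its nearest coding start, at rank 9209 in the pooled list, 23722 in replicate 1 and 22299 in replicate 2. The next start, at 2393415, opens the transcripts for a protein of 586 residues. It had a pooled summit 344 bp upstream (rank 10139), which replicate 2 lacked, and one 557 bp downstream (rank 14538). The third start, at 2389951, opens the transcript for a protein of 363 residues, and no pooled entry overlapped it. The nearest summits of replicate 1 were 927 and 1129 bp downstream of that start (ranks 25820 and 12646). That of replicate 2 was 2730 bp downstream (rank 21566).

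The remaining 2 pooled entries of dot-1.1 were in introns 3 and 5 of transcript Y39G10AR.18a.1, at ranks 23634 and 5733. Those ranked 10139 and 14538 lay in intron 9 of that transcript, so 4 of the 7 pooled entries were intronic. Of the 7 pooled entries, 5 overlapped an entry of both replicates by 1 bp or more, and 2 had a summit of both replicates within 100 bp. At zfp-1 the latter count was 8 of 10, with the 4 optimal entries among them. Shares over all pooled entries were not computed, so these counts are not read as a difference between the genes. The replicate lists held 12 and 8 entries at dot-1.1, with best ranks of 8602 and 8438, and 5 and 3 of these overlapped no pooled entry. These best ranks were held by different entries, the one in the last exon in replicate 1 and the one downstream of the start at 2393415 in replicate 2.

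**Figure D3:**
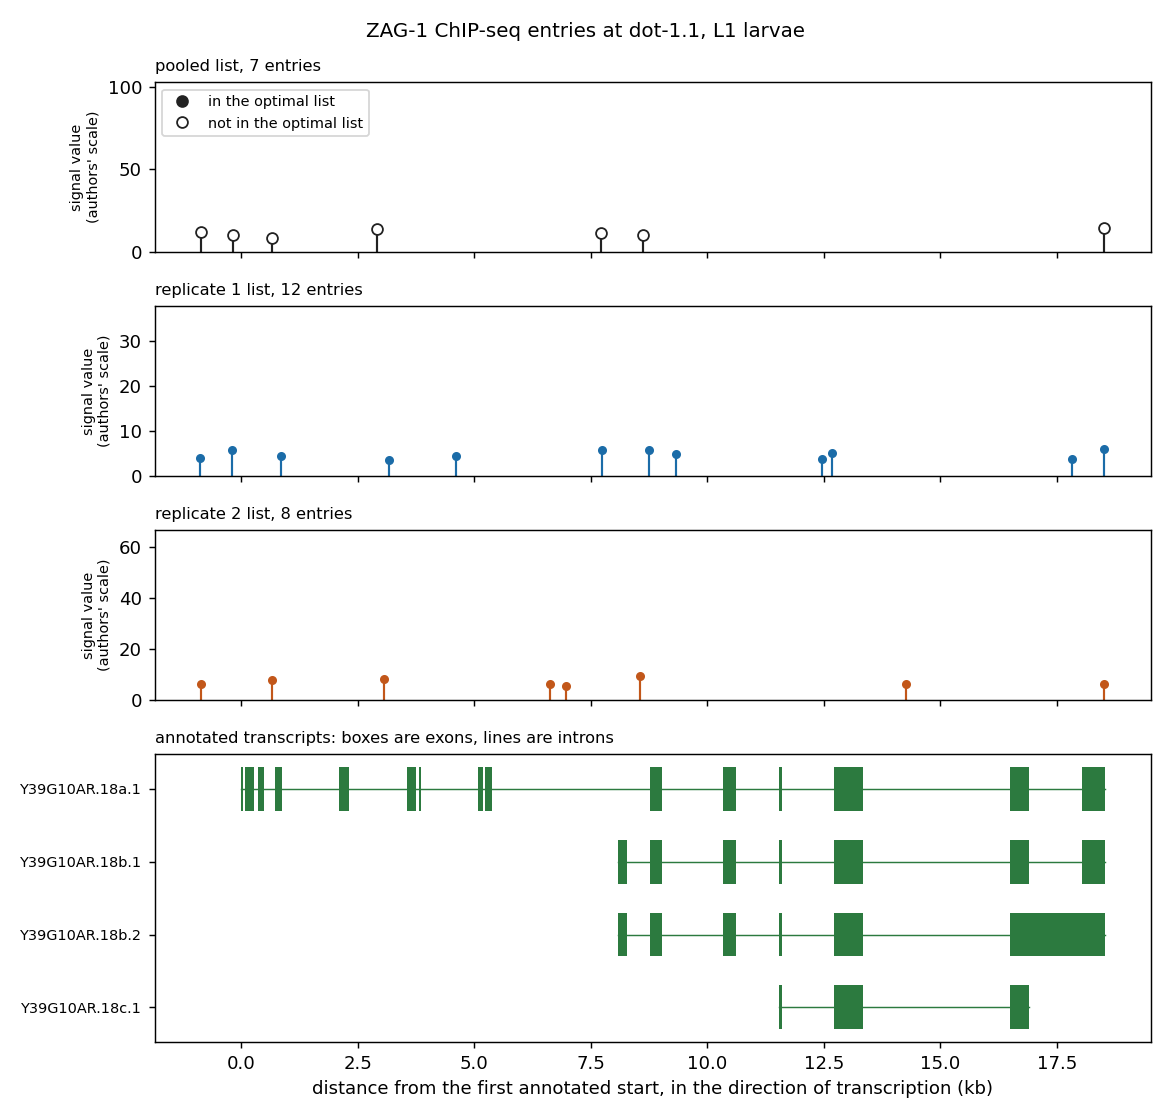
Signal of each entry at dot-1.1 against its summit's distance from the first annotated start (kb), with the 4 annotated transcripts, on the same vertical scales (the authors' signal, separate for each list) as the plot for zfp-1. All 7 pooled points are open, as none is in the optimal list, and the highest has a signal of 14.5.

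The 2 genes also differed in how they stood among all protein-coding genes. 1 or more pooled entries were assigned to 91.2% of genes, with a median of 3 per gene, in a list that includes background. zfp-1 had 10, which 304 genes (1.52%) reached, and dot-1.1 had 7, which 1482 genes (7.42%) reached, but long genes collect more. Per kb of the searched region zfp-1 had 0.47 and dot-1.1 had 0.297, beside a median of 0.298 over genes. By the best pooled rank, 38 genes (0.19%) stood as high as zfp-1 and 7090 (35.5%) as high as dot-1.1, and a shared entry counts for each gene near it.

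The GC content of the 7 windows at dot-1.1 ran from 25.4% to 42.3%, and GAGAGA matched in 0 of 7, as did each of the other words named above. TAATTA, a homeodomain word, had 2 matches at the dot-1.1 entry ranked 23634 and none in the 10 windows of zfp-1. It was in 4.81% of optimal and 11.4% of other pooled windows. The share of bases soft-masked as repeats in the RefSeq genome was from 54.7% to 98% at dot-1.1 and from 9.45% to 20.4% at the 4 optimal summits of zfp-1. The 6 zfp-1 windows outside the optimal list overlapped those of dot-1.1, with a GC content from 18.4% to 50.7%, a soft-masked share from 10.4% to 81.6%, and GAGAGA at the entries ranked 2278 and 5931 only. The median soft-masked share was 23.9% over optimal windows and 36.3% over other pooled windows. The part of repeats in the low ranks at dot-1.1 was not tested.

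Genes that work beside this complex were counted from 4 short lists. Of the 19 genes, all had a pooled entry and 3 had an optimal one, where 5.52% of all genes did. The other 4 genes of the DOT1 family, dot-1.2, dot-1.3, dot-1.4 and dot-1.5, which are related to dot-1.1 in sequence, had 0 optimal entries, and their best pooled ranks ran from 6229 at dot-1.4 to 21208 at dot-1.2. Of the transcription elongation list, 1 of 9 genes had an optimal entry, emb-5, the worm counterpart of the elongation factor SPT6. That entry ranked 149 (signal 45.1), 150 in replicate 1 and 312 in replicate 2, but its summit was 1322 bp from the start of emb-5 and 103 bp from that of acy-1, an adenylyl cyclase gene.

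The kinase gene cdk-9, whose product releases paused RNA polymerase II, came nearest of the other elongation genes, at rank 974 (signal 22.8), 197 bp upstream of its start and outside the optimal list. In the histone H2B ubiquitination list, rfp-1, an E3 ligase gene, had an optimal entry at rank 467 (signal 29.9), which was 1890 bp from its start and 1558 bp from that of unc-116, a kinesin heavy chain gene. ubc-1, the matching E2 enzyme gene, had a best rank of 4821. These entries of emb-5 and rfp-1 were therefore nearer to the starts of other genes.

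Of 4 genes tied to zfp-1 or dot-1.1 by earlier worm genetics, pdk-1 had an optimal entry. It encodes a kinase of insulin signalling and is known as a gene that ZFP-1 binds and represses. The entry, at chrX:1322993-1323336, lay in an intron 1812 bp downstream of its nearest start, with a pooled rank of 181 (signal 41.8) and ranks of 228 and 340 in replicates 1 and 2. rde-1, rde-4 and ced-3, genes of RNA interference and cell death, had best pooled ranks of 22794, 6339 and 8128.

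**Figure D4:**
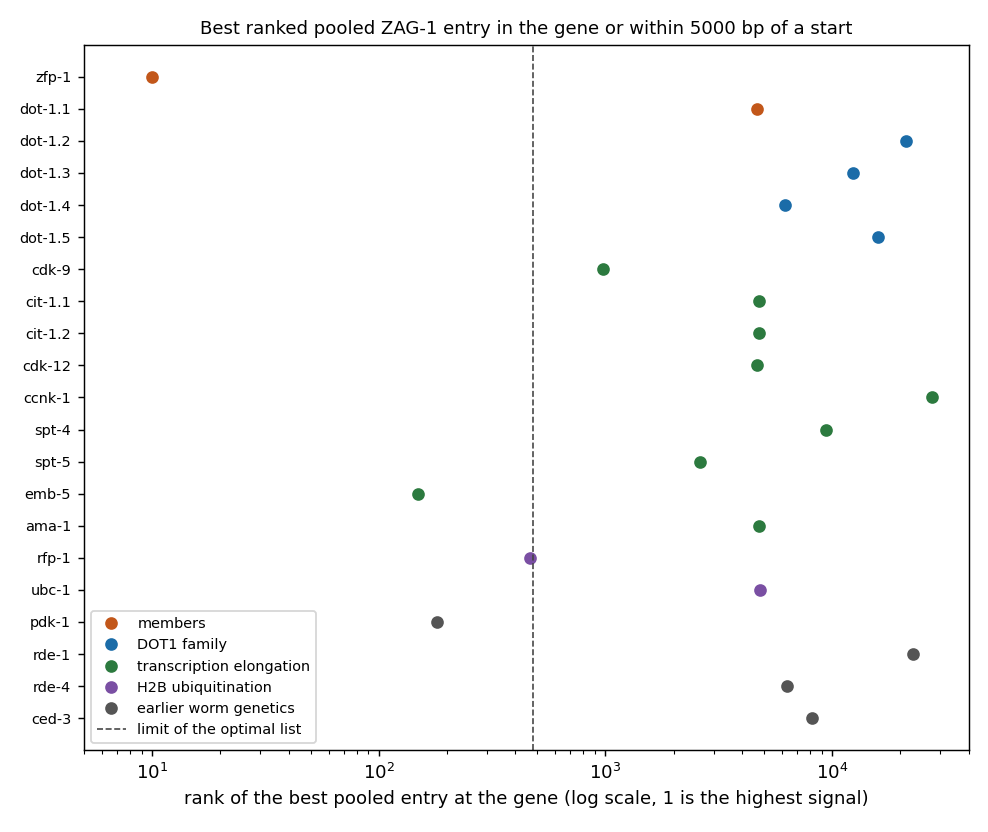
Rank of the best pooled entry (log scale, 1 is the highest signal) for zfp-1, dot-1.1 and the 19 genes of 4 lists, with a dashed line at the limit of the optimal list. zfp-1 (10), emb-5 (149), pdk-1 (181) and rfp-1 (467) lie to the left of the line, and dot-1.1 (4644) lies to its right.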

How the data were processed

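ChIP-seq peak lists on ce11 were read as deposited, 1 for each of 2 replicates, 1 on both pooled and the optimal list, per the release notes deposited with them. The replicate and pooled lists were called against a control alignment, per those notes. The name of the pooled list gives it as peaks and background. The aligner, peak caller, versions and threshold were not given in the sources used here. Column 7 is a signal value per entry as deposited by the authors, with no scale given. Column 9 was taken as the −log10 q deposited by the authors, from the column order of the format. Column 10 is the deposited summit offset. The 4 lists on ce10 were not used, as the genes were placed on ce11.

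Gene models were those of Ensembl release 115 and bases those of RefSeq, both WBcel235. Entries were ranked by signal in each list, ties sharing the better rank, and assigned to a gene by summit. Replicate entries were matched by an overlap of 1 bp or more, taking the best ranked. Words were counted within 100 bp of a summit. Assignment, overlap and word counts were tested on simulated data. Python 3.11.15, pandas 2.3.3 and matplotlib 3.10.9 were used.

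Depth is unknown, so no interval was computed. With 1 group, no comparison between conditions was made. Named genes were the members, the genes at or beside their entries, the neighbours in rank, the 4 lists and the 5 leading genes with a second start. The genes and lists were chosen with earlier results of these data known. The alternatives were other windows, stricter lists, other overlap rules, ranking by −log10 q and the list of 1 replicate.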

Additional observations from a re-analysis of the deposited data

How the results depend on the processing

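No paired analysis was possible because both replicates belong to 1 group and no test was made. Of 46 alternatives, 27 left a value where it was or a count within 1.5 times. The count of optimal entries stayed at 4 for zfp-1 and 0 for dot-1.1 among optimal entries above the list's median signal, with a −log10 q above 2 and with other windows. With the 478 highest entries of 1 replicate in place of the optimal list it was 3 for zfp-1 and 0 for dot-1.1. The 3 were not the same, as replicate 1 lacked the entry of pooled rank 133 and replicate 2 that of rank 132.

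With the list of 1 replicate in place of the pooled list, entries ranged from 13 to 16 at zfp-1 and from 8 to 12 at dot-1.1. The leading rank ranged from 11 to 16 and from 8438 to 8602. The distance of the leading summit from a start ranged from 630 to 1006 bp and from 477 to 1120 bp. Different entries led in the 2 replicates at both genes. At zfp-1 the entry of pooled rank 132 led in replicate 1 (rank 16, 1006 bp) and that of pooled rank 10 in replicate 2 (rank 11, 630 bp). By −log10 q, where values tie, the leading ranks were 1 and 4639. Shared entries at dot-1.1 numbered 3 with an overlap of 0.5 of the entry and 2 with summits within 100 bp. Counting own starts only, the dot-1.1 distance was 6981 bp. GAGAGA matched once (1) within 50 bp of the leading zfp-1 summit. Genes with an optimal entry numbered 483 with 1000 bp around starts, 107 with bodies only and 598 above the median signal. Read numbers are unknown, so a low rank at dot-1.1 does not show that ZAG-1 is absent there.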
